A study of Mus musculus with 20 samples.

Results

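Interferon γ and the proteins that carry its signal were examined through 7 genes, listed by name for their role: the ligand *Ifng*, the receptor chains *Ifngr1* and *Ifngr2*, the kinases *Jak1* and *Jak2*, the transcription factor *Irf1* and the feedback inhibitor *Socs1*. All 7 were listed in both tables, among 20188 genes of the tumor table and 50667 Ensembl genes of the cell table. The samples came from Mvt1 cells, a mammary carcinoma line of the FVB mouse strain, carrying a lentiviral shRNA under puromycin selection. The groups were the scramble control shRNA (scr, labelled wild type) and sh4, an shRNA against *Rnaseh2c*, which encodes a scaffold subunit of RNase H2, an enzyme that removes RNA from RNA:DNA hybrids. In the first comparison, mRNA was read from small sections of 3 scr and 3 sh4 primary tumors, 30 days after implantation by the labels, grown in the mammary fat pad of female FVB mice with an intact immune system. In the second, total RNA was read from 3 scr and 3 sh4 plates of cultured cells with no treatment beyond the shRNA. Each group rests on a single shRNA and 1 transduced cell line, and each tumor group holds 1 tumor from each of 3 injection experiments.

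Interferon γ is a cytokine made mainly by activated T cells and NK cells and rarely by epithelial cells. It binds a receptor of IFNGR1 and IFNGR2 chains, which hold JAK1 and JAK2. The kinases start a signal that reaches GAS elements in the DNA and switches on *Irf1*, and IRF1 then helps to drive chemokine, guanylate binding protein and antigen presentation genes. SOCS1, made in response to the signal, blocks the kinases and so closes the loop.

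*Rnaseh2c* was at 26.9, 52.0 and 25.9 RPKM in the scr tumors of experiments 1, 2 and 3 and at 10.2, 22.4 and 19.8 RPKM in their sh4 tumors, with no overlap. Values follow the order of experiments 1, 2 and 3 here and of plates 1, 2 and 3 in the cells. In the cells it was at 5.83, 7.06 and 5.34 FPKM in the scr plates and 3.19, 5.36 and 4.28 FPKM in the sh4 plates, so that sh4 plate 2 lay at the level of scr plate 3. RPKM and FPKM are reads or fragments scaled to gene length and library size. No read numbers were given, and the depth of the libraries is therefore unknown. Scr tumor 2 stood apart by its summed adipocyte markers, 2443 RPKM against 32.4 to 291 RPKM in the other 5 tumors, and sh4 tumor 2 by low values of most members. The balance of short and long transcripts also varied between tumors. A length index, taken as the gap in median deviation between 1027 genes shorter than 1000 bases and 4098 genes longer than 4000 bases, ran from -0.37 in sh4 tumor 1 to 0.42 in sh4 tumor 2 on the log2 scale. Because the samples are bulk tissue, fewer cells of a type and less RNA per cell cannot be told apart.

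The ligand was the one member whose sh4 tumors all lay above all scr tumors. *Ifng* (chromosome 10 of mm9, 117878103 to 117882948, plus strand) was at 0.516, 0.584 and 0.650 RPKM in scr and at 0.829, 0.786 and 0.786 RPKM in sh4 tumors. The lowest sh4 tumor stood above the highest scr tumor, and sh4 was higher in 3 of 3 experiments, by 0.39, 0.25 and 0.16 on the log2 scale. The means were 0.583 ± 0.0672 and 0.800 ± 0.0251 RPKM (SD, n = 3), a ratio of 1.37. On the scale of log2(RPKM + 0.5), which understates the change of a gene at this level, the difference was 0.26 (standard error 0.15), with a limma p of 0.123 and an adjusted p of 0.995 over 13487 genes. The exact two-sided permutation test gave p = 0.1, the smallest that 3 tumors against 3 allow.

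Across all 13487 genes tested in the tumors, limma called 0 at an adjusted p under 0.05 (0.0%), and the members had 0 calls of 7. At an unadjusted p under 0.05, 4.18% of all genes passed (2.16% higher and 2.02% lower in sh4) and 0 of the 7 members did. The groups did not overlap in 9.17% of all genes, 4.19% with sh4 above and 4.98% with sh4 below, and in 1 of the 7 members, *Ifng*. A gap in 1 of 7 members is near that background.

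The 6 *Ifng* values stood to each other as the whole numbers 23, 26 and 29 in scr and 37, 35 and 35 in sh4, within 0.05, after allowance for the value of 1 step in each library. These sum to 78 and 107. If 1 step were 1 read, the ratio of 1.37 would have an exact 95% interval of 1.02 to 1.86 for counting error alone. Larger common multiples give the same proportions, and the true read number is not known.

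In the cultured cells *Ifng* was listed at 0 FPKM in all 6 libraries, in which 0 of 12 housekeeping genes were at 0. The cells were therefore not tested for it. Of 9 T cell markers, 4 (*Cd3d*, *Cd3e*, *Cd3g* and *Cd2*) were at 0 in every plate, as were the NK cell markers *Ncr1* and *Klrd1*. In the tumors all of these were measured. *Cd247* (1.17 to 1.63 FPKM) and *Cd5* (0.113 to 0.227 FPKM) were above 0 in every plate, and both are among the 9 markers used in the tumors. The summed T cell markers were at 23.4 to 36.7 RPKM in the scr tumors and at 53.3 to 84.3 RPKM in the sh4 tumors. Of the 9, 6 did not overlap between the groups, all higher in sh4, against 4.19% of all genes with sh4 above. The markers were listed with earlier results of these data known, so this count is a description. The 5 NK cell markers summed to 13.2 to 25.7 RPKM in scr and 16.8 to 30.7 RPKM in sh4, which overlap.

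*Ifng* stood lower relative to the T cell markers in the sh4 tumors. The log2 level of *Ifng* minus the mean log2 level of the 9 markers was -1.51, -1.20 and -1.76 in scr and -2.01, -2.26 and -2.26 in sh4 tumors. All sh4 values were below all scr values, with a difference of -0.69 (exact two-sided permutation p = 0.1, adjusted p = 0.15 over the 9 ratios of this kind that were compared). The added 0.5 compresses differences of a low gene such as *Ifng* more than those of more abundant markers. The marker *Cd8a* was as low, at 0.573 and 0.486 RPKM in scr tumors 1 and 2. With 0.1 or 1 added instead of 0.5, the difference ran from -0.68 to -0.65 (exact permutation p = 0.1). The part of T cell number in the *Ifng* level was not tested.

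**Figure D1:**
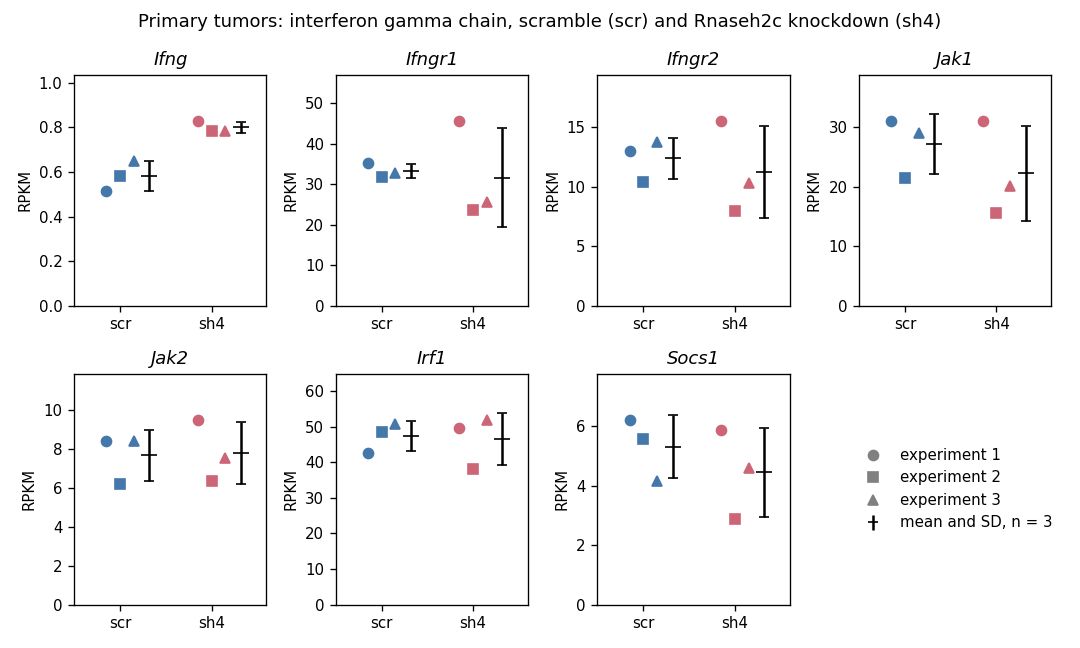
Levels of the 7 members in RPKM (y axis, linear from 0) in scr (blue) and sh4 (red) tumors, with a marker shape for each experiment and the mean and SD of 3 tumors in black. The sh4 tumors lie above all scr tumors for *Ifng* alone, from 0.786 to 0.829 against 0.516 to 0.650 RPKM, and sh4 tumor 2 is the lowest of all 6 for *Ifngr1*, *Ifngr2*, *Jak1*, *Irf1* and *Socs1*.

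Genes that induce *Ifng* had no common direction in the tumors. Of 14 inducers and their receptors and factors, 12 were tested, 8 had a positive log2 fold change and 0 were called, with a median of 0.15 against -0.04 over all genes. *Il18*, a cytokine that acts with IL-12 to induce *Ifng*, was at 50.5, 46.9 and 49.4 RPKM in scr and 38.5, 37.3 and 34.4 RPKM in sh4 tumors, all lower (log2 fold change -0.41, standard error 0.14). Its receptor chain *Il18r1* had a log2 fold change of 0.45 and the T cell factor *Tbx21* one of 0.39, both with overlap. *Stat4*, which carries the IL-12 signal, was at 1.813, 1.456 and 2.035 RPKM in scr and 2.890, 2.744 and 2.045 RPKM in sh4 tumors. All sh4 tumors were higher, but the pair of experiment 3 was nearly level (log2 fold change over all tumors 0.43, standard error 0.22, limma adjusted p = 0.995).

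In the cells, the inducers *Il12b* and *Il21* and the factors *Tbx21* and *Runx3* were at 0 in every plate. Of the 7 inducers tested there, 0 were called. *Il15*, a cytokine that sustains NK cells and memory T cells, was at 3.28, 3.15 and 3.52 FPKM in scr and at 2.01, 2.27 and 2.52 FPKM in sh4 plates, without overlap (log2 fold change -0.47, limma adjusted p = 0.0677). *Il18rap* lay below and *Il12rb1* above all scr plates, with log2 fold changes of -0.31 and 0.30.

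The receptor chains did not separate in the tumors, and in the cells *Ifngr2* was lower in sh4 without passing the adjusted threshold. *Ifngr1* (chromosome 10, 19311755 to 19330035, plus strand), the ligand-binding chain, was at 35.3, 31.8 and 32.7 RPKM in scr and 45.6, 23.6 and 25.6 RPKM in sh4 tumors. The sh4 tumors were thus both the highest and the lowest, and their SD of 12.2 RPKM stood against 1.80 RPKM in scr. The log2 fold change was -0.14 (standard error 0.26). *Ifngr2* (chromosome 16, 91547317 to 91565414, plus strand), the second chain, which brings JAK2, was at 13.0, 10.4 and 13.7 RPKM in scr and 15.5, 7.92 and 10.3 RPKM in sh4 tumors. Its order over the sh4 tumors was that of *Ifngr1*, highest in tumor 1 and lowest in tumor 2, and its log2 fold change was -0.17 (standard error 0.26). Both chains were higher in sh4 in experiment 1 and lower in experiments 2 and 3, and without sh4 tumor 2 their log2 fold changes turned to 0.04 each.

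In the cells *Ifngr1* was at 4.14, 4.42 and 4.95 FPKM in scr and 4.47, 4.50 and 4.05 FPKM in sh4 plates. The groups overlapped, with a log2 fold change of -0.05 (standard error 0.08), and 0.02 without scr plate 3. *Ifngr2* was at 1.67, 1.87 and 2.03 FPKM in scr and 1.59, 1.53 and 1.43 FPKM in sh4 plates. Every sh4 plate lay below every scr plate, with a ratio of means of 0.817 (log2 fold change -0.22, standard error 0.08, limma adjusted p = 0.224).

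Of the 21106 genes tested in the cells, limma called 270 at an adjusted p under 0.05 (1.28%, of which 0.521% higher and 0.758% lower in sh4), and the members had 0 calls of 6 tested. The number called over all genes was 7 and 2 without scr plate 2 or 3, and 15, 18 and 15 without sh4 plate 1, 2 or 3, and the members had 0 calls in each of these fits. At an unadjusted p under 0.05, 18.9% of all genes passed (9.55% higher and 9.33% lower), and so did 4 of the 6 members, *Ifngr2*, *Jak1*, *Jak2* and *Socs1*. The groups did not overlap in 27.5% of all genes, 13.6% with sh4 above and 13.8% with sh4 below. Of the 6 members, 1 lay above (*Socs1*) and 3 below (*Ifngr2*, *Jak1* and *Jak2*). The plates are described as biological replicates, but all plates of a group hold the same transduced line, so that the p-values measure the spread between plates of 1 line.

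The ratio between the receptor chains differed in the cells. The log2 ratio of *Ifngr1* to *Ifngr2* was 1.09, 1.05 and 1.10 in scr and 1.25, 1.30 and 1.24 in sh4 plates, with every sh4 plate higher and a difference of 0.18 (exact permutation p = 0.1, adjusted p = 0.15). In the tumors it was 1.41, 1.57 and 1.22 in scr and 1.53, 1.52 and 1.27 in sh4, with overlap and a difference of 0.04. Among the other interferon receptor genes, 0 were called in either table. *Il10rb*, a chain shared by the IL-10 and interferon λ receptors, was lower in all 3 sh4 plates (log2 fold change -0.25), as was *Ifnar1*, a chain of the type I interferon receptor (-0.13), and both overlapped in the tumors.

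**Figure D2:**
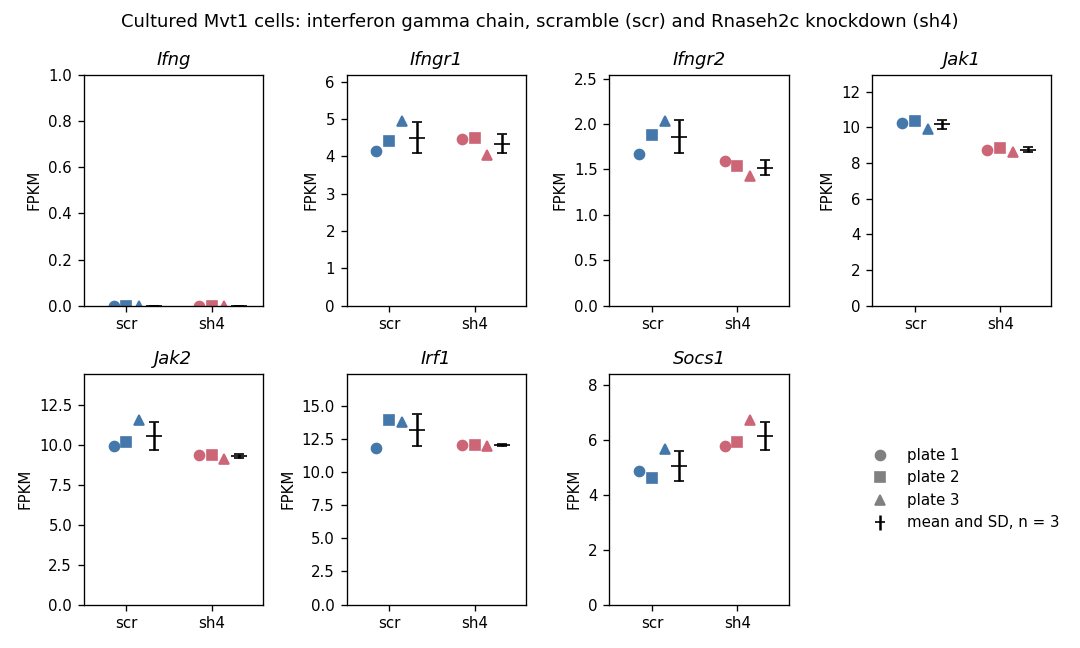
Levels of the 7 members in FPKM (y axis, linear from 0) in scr (blue) and sh4 (red) plates of cultured cells, with a marker shape for each plate number and the mean and SD of 3 plates in black. *Ifng* is at 0 in all 6 plates, the sh4 plates of *Ifngr2*, *Jak1* and *Jak2* lie below all scr plates, and those of *Socs1* lie above.

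Both kinases were lower in all 3 sh4 plates and overlapped in the tumors, and *Jak1* had the smallest limma p of any member in the cells. *Jak1* (chromosome 4, 100824972 to 100937887, minus strand), which sits on IFNGR1 and also serves type I interferon and many cytokine receptors, was at 10.3, 10.4 and 9.88 FPKM in scr and 8.74, 8.87 and 8.60 FPKM in sh4 plates. The gap between the groups was wider than the range within either, and the sh4 mean was 0.860 of the scr mean. The log2 fold change was -0.21 (standard error 0.05), with a limma p of 0.00406 and an adjusted p of 0.0955, above the threshold. *Jak2* (chromosome 19, 29326318 to 29387570, plus strand), which sits on IFNGR2, was at 9.93, 10.2 and 11.6 FPKM in scr and 9.40, 9.36 and 9.17 FPKM in sh4 plates. Again every sh4 plate was lower, with a ratio of means of 0.880 (log2 fold change -0.17, standard error 0.07, limma adjusted p = 0.251).

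In the tumors *Jak1* was at 31.1, 21.4 and 29.1 RPKM in scr and 31.1, 15.6 and 20.1 RPKM in sh4. Within experiments, sh4 tumor 1 was level with its scr tumor and sh4 tumors 2 and 3 differed from theirs by -0.44 and -0.52 on the log2 scale. The log2 fold change over all 6 tumors was -0.32 (standard error 0.28, limma adjusted p = 0.995). *Jak2* was at 8.40, 6.16 and 8.38 RPKM in scr and 9.47, 6.32 and 7.52 RPKM in sh4 tumors. Its lowest values were those of experiment 2 in both groups, and its log2 fold change was 0.02 (standard error 0.22), which turned to -0.12 without scr tumor 2 and to -0.13 without sh4 tumor 1.

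*Jak1* was lower relative to *Jak2* in the sh4 tumors. The log2 ratio was 1.83, 1.72 and 1.74 in scr and 1.66, 1.24 and 1.36 in sh4 tumors, with no overlap and a difference of -0.34 (exact permutation p = 0.1, adjusted p = 0.15). Their longest annotated transcripts are of like length, 4906 bases for *Jak1* and 5030 bases for *Jak2*. In the cells the ratio differed by -0.03 between the groups, with overlap. Of the other 2 Janus kinases, *Tyk2*, which serves type I interferon and IL-12 receptors, was lower in all 3 sh4 plates (log2 fold change -0.32, limma adjusted p = 0.107) and had a log2 fold change of -0.30 in the tumors with overlap. *Jak3*, the kinase of the common γ chain, overlapped in both tables (0.16 in tumors and -0.13 in cells).

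The length index moved with the receptor and kinase levels across the tumors. *Jak1* and *Jak2*, both longer than 4000 bases, are among the long genes from which the index was made. A negative index means that long genes stood high relative to short ones, so the place of these kinases is in part built into it. The 3 tumors with a negative index, scr 1, scr 3 and sh4 1, held the 3 highest values of *Ifngr1*, *Ifngr2*, *Jak1* and *Jak2*. Sh4 tumor 2, with the highest index, held the lowest value of *Ifngr1*, *Ifngr2* and *Jak1*. The longest transcripts are of 2112 bases (*Ifngr1*), 3254 bases (*Ifngr2*) and the lengths given above for the kinases. *Ifng* is of 1207, *Socs1* of 1220 and *Irf1* of 2137 bases. *Irf1*, close to *Ifngr1* in length, was highest in sh4 tumor 3 (52.0 RPKM), where the index was 0.06, and lowest in sh4 tumor 2 (38.1 RPKM). With the index as a covariate, an alternative chosen after the data were seen, the log2 fold changes were -0.06 for *Ifngr1*, -0.08 for *Ifngr2*, -0.21 for *Jak1* and 0.09 for *Jak2*, and that of *Ifng* was 0.27. The index cannot be separated from the samples it was taken from, and its part in the member levels was not tested beyond this fit.

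**Figure D3:**
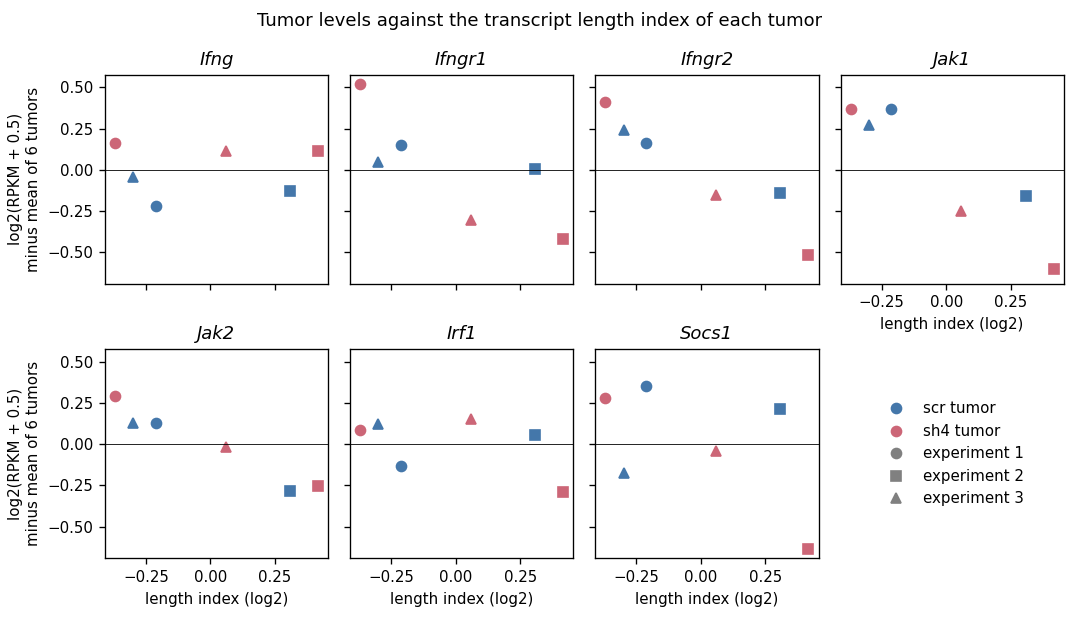
Deviation of each member from its mean over the 6 tumors, in log2(RPKM + 0.5) (y axis), against the length index of the tumor (x axis, log2), for scr (blue) and sh4 (red) tumors with a marker shape for each experiment. *Ifngr1*, *Ifngr2*, *Jak1* and *Jak2* are highest in the 3 tumors with an index from -0.37 to -0.21, while the sh4 tumors of *Ifng* lie above the scr tumors along the whole axis.

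*Irf1*, the transcription factor that the signal induces, was the most abundant member in both tables and did not separate the groups in either. It lies on chromosome 11 of mm9 from 53583516 to 53591876 on the plus strand. In the tumors it was at 42.6, 48.6 and 50.9 RPKM in scr and 49.6, 38.1 and 52.0 RPKM in sh4, so that sh4 held both the highest and the lowest value. The log2 fold change was -0.03 (standard error 0.18), with a sign that turned to 0.03 under median-ratio scaling and 0.02 under quantile normalization, and was 0.10 without sh4 tumor 2 and 0.02 without scr tumor 3. In the cells *Irf1* was at 11.8, 14.0 and 13.8 FPKM in scr and 12.1, 12.1 and 12.0 FPKM in sh4 plates. The sh4 plates lay close together above scr plate 1 and below the other 2, with a log2 fold change of -0.12 (standard error 0.07, limma adjusted p = 0.414).

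The promoter of *Irf1* is shown because a GAS element there is the known site of response to the signal. RefSeq windows of 300 bases (250 before and 50 after the start, GRCm38.p6) were found for all 7 members, 8 windows in all since *Irf1* has 2. The GAS form TTCNNNGAA, which reads the same on both strands, occurred in 8.3% of all 32851 windows. It was present 90 bases before the *Irf1* start (first window), and also 249 bases before the *Ifng* start. The stretch of the *Irf1* promoter lies at chr11:53769899-53769957 on the plus strand, with the match in capitals.
Irf1: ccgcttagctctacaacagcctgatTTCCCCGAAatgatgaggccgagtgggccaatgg

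Of 8 other IRF genes, 0 were called in either table, with 7 tested in the cells. Of these 7, 4 (*Irf3*, *Irf7*, *Irf8* and *Irf9*) lay above all scr plates, against 13.6% of all genes. *Irf9*, the DNA-binding part of the type I interferon factor complex, was at 2.26, 2.38 and 2.26 FPKM in scr and 3.12, 2.78 and 3.05 FPKM in sh4 plates, all higher (log2 fold change 0.31, limma adjusted p = 0.0843), and *Irf8*, a factor of myeloid cells, was also higher in all 3 (0.32). In the tumors *Irf2*, an antagonist of IRF1 at shared sites, had the lowest log2 fold change of the family, -0.51, with overlap.

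The feedback inhibitor was the only tested member that lay higher in the sh4 cells. *Socs1* (chromosome 16, 10783901 to 10785629, minus strand) was at 4.86, 4.59 and 5.65 FPKM in scr and 5.75, 5.92 and 6.73 FPKM in sh4 plates. The lowest sh4 plate stood just above the highest scr plate, and the mean was 21.9% higher. The log2 fold change was 0.26 (standard error 0.09, limma adjusted p = 0.215). In the tumors *Socs1* was at 6.21, 5.57 and 4.14 RPKM in scr and 5.86, 2.87 and 4.60 RPKM in sh4. The groups overlapped, with a log2 fold change of -0.26 (standard error 0.29) that rested mostly on sh4 tumor 2, and -0.01 was left without it. The 2 tables thus gave estimates of unlike sign, a difference that was not tested since they were normalized apart.

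The promoter of *Socs1* is shown because interferon regulatory factors, IRF1 among them, act on it. The form GAAA, any 2 bases, GAAA (as in interferon-stimulated response elements), searched on both strands, occurred in 3.44% of all windows and among the members in that of *Socs1* alone. The 2 matches overlap and start 83 and 77 bases before the start. They are in capitals in the stretch at chr16:10785579-10785644 (GRCm38.p6, minus strand).
Socs1: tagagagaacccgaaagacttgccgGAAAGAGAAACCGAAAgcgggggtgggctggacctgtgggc

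Within the cells *Socs1* stood higher relative to *Irf1* in sh4. The log2 ratio of *Socs1* to *Irf1* was -1.20, -1.51 and -1.22 in scr and -1.01, -0.97 and -0.79 in sh4 plates, with every sh4 plate higher and a difference of 0.39 (exact permutation p = 0.1, adjusted p = 0.15). In the tumors the difference was -0.23 with overlap. Of the 7 other SOCS genes, 0 were called in either table, with 6 tested in the cells. *Socs3*, an inhibitor of IL-6 type signals, was at 16.1, 15.3 and 16.0 RPKM in scr and 10.2, 8.01 and 14.9 RPKM in sh4 tumors, all lower (log2 fold change -0.55, standard error 0.24, limma adjusted p = 0.995), and overlapped in the cells. Of 9 further brakes, phosphatases and PIAS proteins among them, 8 had a negative log2 fold change in the tumors with a median of -0.20, and in the cells 5 did with a median of -0.02, with 0 called in both. *Ptpn1*, a phosphatase of JAK2, had the smallest p of these in the tumors (log2 fold change -0.33, limma adjusted p = 0.995).

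**Figure D4:**
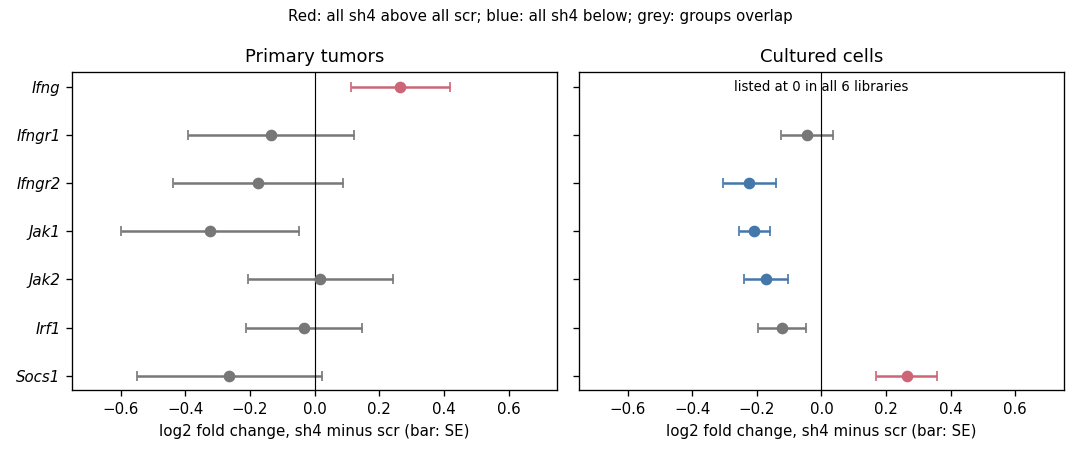
Log2 fold change of each member, sh4 minus scr (x axis, on the scale of log2(value + 0.5)), with the standard error from limma as a bar, in tumors (left) and cultured cells (right). Red marks members whose sh4 libraries all lie above scr (*Ifng* in tumors, *Socs1* in cells), blue those all below (*Ifngr2*, *Jak1* and *Jak2* in cells) and grey an overlap. The standard errors run from 0.15 to 0.29 in the tumors and from 0.05 to 0.09 in the cells.

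The order of the members by level differed between tumors and cells. In the tumors the means over 6 libraries ran from *Irf1* (47.0 RPKM) through *Ifngr1* (32.4), *Jak1* (24.7), *Ifngr2* (11.8), *Jak2* (7.71) and *Socs1* (4.88) to *Ifng* (0.692 RPKM). Neighbours in this order overlapped in their ranges except *Jak1* with *Ifngr2* and *Socs1* with *Ifng*. In the cells the order was *Irf1* (12.6 FPKM), *Jak2* (9.95), *Jak1* (9.45), *Socs1* (5.58), *Ifngr1* (4.42), *Ifngr2* (1.69 FPKM) and *Ifng*, where *Jak2* overlapped with *Jak1* and *Socs1* with *Ifngr1*. *Ifngr1* thus stood above both kinases in the tumors and below them in the cells. No test was made between the tables, which differ in RNA selection and normalization.

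Genes known to respond to interferon γ lay mostly higher in the sh4 tumors, although *Irf1* did not. Of 21 such genes, 17 had a positive log2 fold change, 10 of them at an unadjusted p under 0.05 and 0 after adjustment, and the median was 0.49. Over all genes tested 42.6% had a positive value and 2.16% were higher at an unadjusted p under 0.05. The list was chosen with earlier results of these data known and its genes were read in the same tumors, so these counts are a description. *Cxcl9*, a chemokine for activated T cells, had the smallest p of these (log2 fold change 1.91, 1.43 to 2.53 with 1 tumor left out). *Nlrc5*, the activator of MHC class I genes, was at 2.74, 1.16 and 2.31 RPKM in scr and 4.64, 3.70 and 5.41 RPKM in sh4 tumors, without overlap (1.03, standard error 0.30). The peptide transporter *Tap1* did not overlap either, at 10.7 to 13.7 RPKM in scr and 17.4 to 29.8 RPKM in sh4 tumors. With scr tumor 2 left out, 18 of the 21 were positive and the median was 0.30. The T cell markers, given above, were higher in the same tumors. The 5 dendritic cell markers summed to 10.5 to 12.6 RPKM in scr and 15.5 to 18.1 RPKM in sh4 tumors, and the 4 B cell markers to 2.06 to 2.92 and 3.17 to 4.54 RPKM, both without overlap. Of the dendritic cell markers 2, *Itgax* and *Ccr7*, lay above all scr tumors, and *Flt3*, *Zbtb46* and *Xcr1* overlapped. The B cell sum was mostly *Cd79b* (1.95 to 4.01 RPKM). Of the macrophage markers 4 of 5 had a negative log2 fold change, as did 3 of 3 neutrophil markers, and both sums overlapped. The part of infiltrating cells in the response genes was not tested.

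In the cells the same list did not lie higher. Of 14 genes tested there, 5 had a positive log2 fold change and the median was -0.06, with *Cxcl9* and *H2-Aa* at 0 in every plate. At an unadjusted p under 0.05, 6 of the 14 were lower and 2 higher, against 9.33% and 9.55% of all genes. Of the 14, 7 lay below and 2 above all scr plates, against 13.8% and 13.6% of all genes. The 2 above, named after their values were seen, were *Ido1*, an enzyme of tryptophan breakdown, and the chemokine *Cxcl10*, with log2 fold changes of 0.32 and 0.23. Both were low. *Ido1* was at 0.451 to 0.492 FPKM in scr and 0.608 to 0.854 FPKM in sh4 plates. *Cxcl10* was at 0.108 to 0.166 and 0.206 to 0.311 FPKM, near the minimum mean of 0.1 for testing. *Gbp2*, a guanylate binding protein, was at 16.9, 18.0 and 18.9 FPKM in scr and 12.3, 12.9 and 11.7 FPKM in sh4 plates. It fell by 0.52 on the log2 scale (standard error 0.06, limma adjusted p = 0.0311), the single gene of the pathway lists called, where 1.28% of all genes were. It was no longer called in 5 of the 6 fits with a plate left out (adjusted p = 0.104 to 0.141, and 0.0361 without scr plate 1). *Tapbp*, *Igtp* and *Psmb8*, of peptide loading, of GTPase defence and of the immunoproteasome, were lower in all 3 sh4 plates without passing (log2 fold changes -0.28, -0.39 and -0.42). In the tumors *Gbp2* was at 49.8 to 69.2 RPKM in scr and 65.2 to 77.7 RPKM in sh4, with overlap and a log2 fold change of 0.23.

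The genes whose profile over the 6 tumors was most like that of *Ifng* were *Pdcd1* (Pearson r = 0.99), *Klra17* (r = 0.97) and *Sla* (r = 0.97), of 8182 genes searched with a mean of at least 1 and an SD of at least 0.2. *Pdcd1* encodes the PD-1 receptor of activated T cells, and it was at 0.484, 0.727 and 0.967 RPKM in scr and 2.24, 2.18 and 2.30 RPKM in sh4 tumors. With 6 points 32 genes reached an r of 0.9, and all genes of a library share its depth and composition, so these are descriptions. For *Irf1* the nearest were *Srpx*, *Acot2* and *Afg3l2* in the tumors and *Cdk5*, *4930444A02Rik* and *1110058L19Rik* in the cells, at r from 0.98 to 0.99. For *Socs1* they were *Parvb*, *Ppap2b* and *Ccnb1* in the tumors, with r from 0.96 to 0.97, and in the cells *Gm6419* and *Snora2b* were among the nearest 3 of 2890 genes searched.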

How the data were processed

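For the tumors the authors deposited RPKM: Trimmomatic removed adapters, Tophat placed the reads on mm9 (Ensembl v70 transcripts), and the Partek Genomics Suite was used for analysis. For the cells the authors deposited FPKM of Ensembl genes and of assembled loci. The methods name Tophat with a GENCODE lncRNA annotation for the long noncoding RNAs of these samples, and the program behind the FPKM is not given in the sources used here. The submitters' processing notes give TopHat2 2.1.0, STAR 2.7, Bowtie, BWA and GATK, with no role for any. The 239874 assembled loci were left out, and 32709 of the 50667 Ensembl genes had a symbol. Exome samples of metastases were not used here.

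The members and gene lists were chosen with earlier results of these data known. Within each table, log2(value + 0.5) of genes with a mean of at least 0.1 was compared by limma 3.58.1 (R 4.3.3, trended variance). P-values were adjusted by the Benjamini-Hochberg method over all genes tested, with a threshold of 0.05. Single values were also compared by exact permutation, where p = 0.1 is the smallest possible. Named were all members, *Rnaseh2c*, up to 4 genes with the smallest p of each pathway list and the 3 genes most like *Ifng*, *Irf1* and *Socs1*; 1 gene of the pathway lists and the ratio that uses it are not reported here. Coordinates came from GENCODE vM1 on NCBIM37, which is mm9, and promoters from RefSeq on GRCm38.p6.

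The labels give tumor numbers as experiments, which pairs the groups. The main limma fit and the permutation tests of the tumors did not use this pairing, which entered only through the replicate block. The correlation of deviations between tumors of a number was 0.14, 0.33 and -0.12. The alternatives tried were the replicate block, each library left out, limma without the trend, median-ratio scaling, quantile normalization, pseudocounts of 0.1 and 1, a minimum mean of 1 and no filter. The length index covariate, the whole-number proportions and the lists with a library left out were added after the data were seen. Only 77.6% of cell genes had a transcript length, so the index was not computed for the cells.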

Additional observations from a re-analysis of the deposited data

How the results depend on the processing

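No member passed an adjusted p of 0.05 under any alternative that was run, in tumors or cells. In the tumors 0 genes were called under every alternative, and 911 against 564 had an unadjusted p under 0.05 with the experiment as a replicate block, which changed no call of a member. The *Irf1* log2 fold change in tumors reversed to 0.0262 with median-ratio scaling and to 0.022 with quantile normalization, and the cause was not tested. With 1 library left out it ran from -0.12 to 0.10, that of *Ifngr1* from -0.43 to 0.0394, *Ifngr2* from -0.42 to 0.0398 and *Jak2* from -0.13 to 0.15. The log2 ratio of *Ifngr1* to *Ifngr2* in tumors then ran from -0.0495 to 0.12.

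In the cells *Ifngr1* ran from -0.0991 to 0.0168 and the log2 ratio of *Jak1* to *Jak2* from -0.12 to 0.0133 with 1 plate left out. The 270 genes called in the cells became 408 with a mean of at least 1, 1045 with median-ratio scaling, 1223 with quantile normalization, 171 without the trend, 77 without a filter and 0 with the plate number as a replicate block, which is not a pairing given by the labels (correlations of deviations -0.06, -0.08 and -0.07). With 1 plate left out 2 to 242 genes were called. *Gbp2* was not called without a filter (adjusted p = 0.0521) or with the block (adjusted p = 0.243). The remaining estimates of members kept their sign. Read depth is unknown, so what it limits could not be given for any member.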
